A study of Mus musculus with 8 samples.

Results

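Narrow peaks of N6-methyladenosine (m6A) in the 5′ untranslated regions (5′ UTRs) of messenger RNA were examined in the mouse macrophage line RAW264.7. Members were all peaks that the authors' lists annotate to a 5′ UTR and that span at most 500 bp of genome. There were 771 of them among 20732 peaks (3.72%), with 181 in untreated cells (control), 230 with TBP, 257 with TCP and 103 with TIP. The widest member spanned 278 bp. A further 30 peaks of the 5′ UTR class were wider and were left out; the narrowest of these spanned 600 bp.

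The study compared RNA bound by an anti-m6A antibody between untreated cells and cells treated for 24 h with TBP, TCP or TIP, each at 100 µM. The labels do not spell out these 3 abbreviations, name no vehicle for the control, and give 1 immunoprecipitated and 1 input library per condition; only the immunoprecipitated libraries' peak lists were used here. With 1 library per condition no difference between conditions has a replicate check and no p-value is given. Where a share is followed by an interval, it is the exact Clopper-Pearson 95% interval, which covers counting error only. Other shares are given without one. Read counts are not part of the lists, so the depth of each peak is unknown, and a missing peak means that none was called, not that the transcript lacked the mark. The 3 comparisons with control share the same control library. Of 31 marker genes of other cell types none had a peak of any class, and 15 of 30 macrophage identity genes had one.

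The 5′ UTR is the stretch of a messenger RNA between its cap and its start codon, along which the small ribosomal subunit scans. Most m6A in mammalian messenger RNA is found near stop codons and in 3′ UTRs, where the methyltransferase complex around Mettl3 and Mettl14 acts on an adenosine in a GGAC-like context, and a smaller part lies in 5′ UTRs, where the mark has been linked to translation that depends less on the cap-binding complex. Antibodies to m6A also bind the related m6Am, a cap-adjacent adenosine methylated by Pcif1, so a peak at a transcript start can hold either mark.

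Sequences were read for members that lay wholly inside a RefSeq window of 250 bases before to 50 bases after a gene start (GRCm38.p6, the build of the lists). These were 46 distinct members in 44 genes. They were set by the windows in the table, which does not cover every member near a start, and are not a sample of the whole class: 15 began after the start base, 18 held it and 13 were upstream of it. The 7 of these that span 25 bp and hold GGAC are shown first, because they carry the letters of the m6A context. Those of Dnajc17, Ndufa8, Ranbp1 and Pou2f1 begin 9, 19, 2 and 4 bases after the RefSeq start. Those of Dhrs3, Ptpn4 and Hnrnpdl lie wholly upstream of it, beginning at -200, -196 and -99. Whether transcripts of these upstream cases hold the letters shown was not tested. GGAC is in capitals and the rest in lower case, 5′ to 3′ on the transcript's strand. Positions are GRCm38.

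Dnajc17, chr2:119208763-119208787, minus strand: aattcaagtttGGACtagaaccatg
Ndufa8, chr2:36049296-36049320, minus strand: ttggccagccaaaggGGACttgaag
Ranbp1, chr16:18248669-18248693, minus strand: gggggcggagggaagagcGGACggg
Pou2f1, chr1:166002607-166002631, minus strand: atattcaaaatggcGGACggaggag
Ptpn4, chr1:119837243-119837267, minus strand: gtcagaaatcggggctccgGGACtt
Dhrs3, chr4:144892877-144892901, plus strand: cGGACtgaaattgggagctgcaatc
Hnrnpdl, chr5:100039297-100039321, minus strand: gagggcgcagcaagGGACtgagccg

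All 7 were weak peaks by the authors' score. Dnajc17 ranked 3291 of 4432 in control and 5229 of 6981 in TCP, Ndufa8 ranked 3291 and Ranbp1 3772 in control, Pou2f1 and Ptpn4 ranked 5932 in TCP, and Dhrs3 ranked 4741 and Hnrnpdl 5377 of 6285 in TBP. Dnajc17 is the single one of the 7 with a peak in more than 1 list. Ndufa8 encodes a subunit of respiratory complex I, Ranbp1 a partner of the Ran GTPase, Pou2f1 the octamer-binding factor Oct1, and Hnrnpdl an RNA-binding protein.

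For comparison, 3 members of the same width without GGAC are given, each called near a start in control: Ctss, a lysosomal cathepsin of macrophages, Rps19, a ribosomal protein whose transcript starts with a pyrimidine tract, and Bnip2. The Ctss peak begins 26 bases after the RefSeq start. That of Rps19 begins at -30 and ends before the RefSeq start, and that of Bnip2 holds it.

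Ctss, chr3:95526811-95526835, plus strand: acaagctccgatttctttttagagt
Rps19, chr7:24884646-24884670, plus strand: ctggcagcgcggaggccgcacggtg
Bnip2, chr9:69989491-69989515, plus strand: gggcgtacgcactgaatccgggtca

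Overlapping members share letters, so motifs were counted over 44 loci, with the widest member of each. GGAC on the transcript's strand was found in 8 of the 44 (18.2%, 8.19 to 32.7). In the same windows of all 21263 RefSeq start regions of protein-coding genes it was found in 12.2%, which lies inside that interval. The longer GGACT, which contains GGAC, was in 6 of 44 (13.6%, 5.17 to 27.4) against 3.28% of the same windows, which lies below the interval. Of these 6, Opn3, Dhrs3, Ptpn4 and Hnrnpdl lay wholly upstream of the RefSeq start used, beginning at -202, -200, -196 and -99. That was so for 12 of the 44 loci. For Opn3 the start used is that of another gene, Chml. Measured from the nearest RefSeq start of Opn3 itself, the locus lies 4114 bp downstream. The GGACT excess thus rests largely on sequence before the start of the window used, which for Opn3 is not the start of the host gene. The reverse complement of GGAC, GTCC, served as the other strand's count and was in 6 of 44 (13.6%) against 11.9%. The median GC content was 56.4%, and the mean of the same windows 59.1%. Of 20 gene starts inside a member, 8 had an A as their first base (40%, 19.1 to 64.0), against 37.4% of all starts.

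The number of members followed the length of the list. The ratio of members to control was 1.27 in TBP, 1.42 in TCP and 0.569 in TIP, while for all peaks it was 1.42, 1.58 and 0.685. As a share of the list, members made up 4.08% (3.52 to 4.71) in control, 3.66% (3.21 to 4.15) with TBP, 3.68% (3.25 to 4.15) with TCP and 3.40% (2.78 to 4.10) with TIP. These intervals all overlap. Among the 3034 best-scoring peaks of each list, the length of the TIP list, members numbered 104 in control, 103 with TBP, 93 with TCP and 103 with TIP, so the order of the full lists was not kept.

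Members were short. Their median width was 50 bp in each list, and the smallest width, 25 bp, was that of 88 members in control (48.6%), 81 with TBP (35.2%), 109 with TCP (42.4%) and 43 with TIP (41.7%). In control, 33.7% of narrow 3′ UTR peaks and 39.8% of narrow exon peaks outside UTRs had that width; in TBP the values were 34.2% and 38.4%, close to that of the members, and in TCP 37.2% and 38.6%. Members over 100 bp numbered 10 in control, 19 with TBP, 20 with TCP and 9 with TIP.

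Distances to the nearest transcript start, as the lists give them, were short. The distance was at most 100 bp in either direction for 76 control members (42.0%), 86 in TBP (37.4%), 87 in TCP (33.9%) and 32 in TIP (31.1%). Among narrow 3′ UTR peaks the same share was 1.07% in control and below that in the other lists, and among narrow exon peaks it was between 4.54% and 5.47%. The median absolute distance of members was 185 bp in control, 243 with TBP, 260 with TCP and 399 with TIP. Narrow 3′ UTR peaks had medians of 5425 bp in TIP to 5765 bp in TBP. Members were chosen by their 5′ UTR annotation, so lying nearer a start than 3′ UTR peaks follows from that choice. A start lay inside the peak for 37 members in control, 38 with TBP, 37 with TCP and 13 with TIP, and 18, 24, 25 and 15 members were over 10000 bp from the nearest start. Whether such distant members lie in later exons of a 5′ UTR split by introns was not tested. Mrps6, a protein of the mitochondrial small ribosomal subunit, is an example: its 5′ UTR locus was 18052 bp from the nearest start. Distances were also measured from the nearest RefSeq start of the host gene to the centre of the peak, with upstream ones negative. These signed medians were 681, 677, 862.5 and 1122 bp in control, TBP, TCP and TIP, for the 137, 174, 188 and 79 members with such a start. Taken with their sign, the lists' own distances had medians of 43, 45.5, 114 and 152 bp.

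The authors' score, whose scale is not stated, placed the median member below the middle of each list. The median member stood at percentile 37.4 of the control list, 42.7 of TBP, 43.2 of TCP and 42.5 of TIP, where the median of a whole list is near 50. Narrow 3′ UTR peaks had medians of 50.3, 53.3, 48.9 and 50.3. The lowest score of the list was held by 44 members in control (24.3%), against 14.9% of all narrow control peaks. In the other lists the members' share at the lowest score was 15.7%, 15.6% and 13.6%, against 14.5%, 15.1% and 10.9% of all narrow peaks. The best-scoring 10% of a list, with ties counted in, held 12 members in control (6.63%), 21 with TBP (9.13%), 21 with TCP (8.17%) and 11 with TIP (10.7%). All 11 TIP members stand at rank 17, where 301 TIP peaks are tied.

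**Figure D1:**
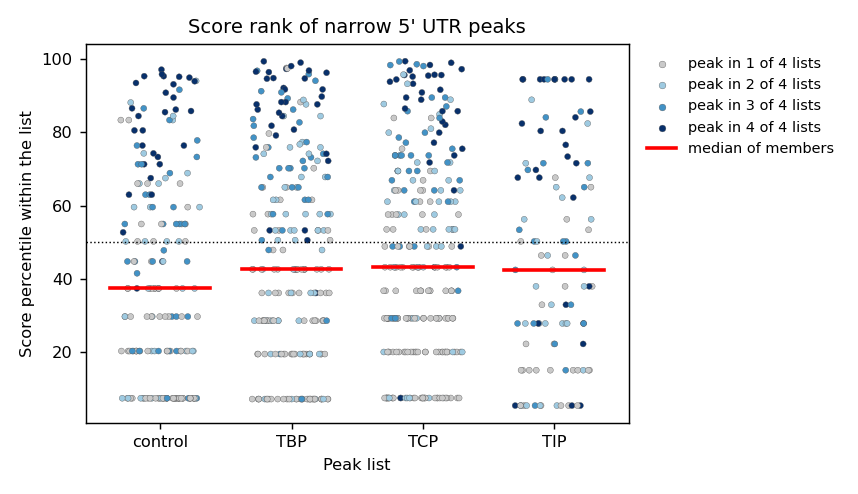
Score percentile within its own list (y axis, 100 is the best score) of each narrow 5′ UTR peak, by list (x axis), coloured by the number of the 4 lists with an overlapping peak; red bars are the medians of members and the dotted line marks 50. The medians lie between 37.4 and 43.2, peaks found in 1 list fill the lower part of each column, and the row of TIP points near the top is the 11 members tied at rank 17.

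Recurrence was counted as overlap by at least 1 bp on the same strand with a peak of any class in another list. In control, 76 of 181 members (42.0%, 34.7 to 49.5) overlapped no peak of any other list, against 23.8% of all narrow control peaks, which here and below include the members. The share without a partner was 46.1% (39.5 to 52.8) in TBP, against 37.0% of all narrow peaks, 51.8% (45.5 to 58.0) in TCP, against 41.8%, and 27.2% (18.9 to 36.8) in TIP, against 24.1%. Members thus lacked a partner more often than narrow peaks as a whole in control, TBP and TCP, by more than counting error, and in TIP the 2 shares lay within it. Overlap with all 3 other lists was found for 31 control members (17.1%), 32 in TBP (13.9%), 32 in TCP (12.5%) and 29 in TIP (28.2%), against 23.2%, 17.2%, 15.2% and 32.1% of all narrow peaks.

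**Figure D2:**
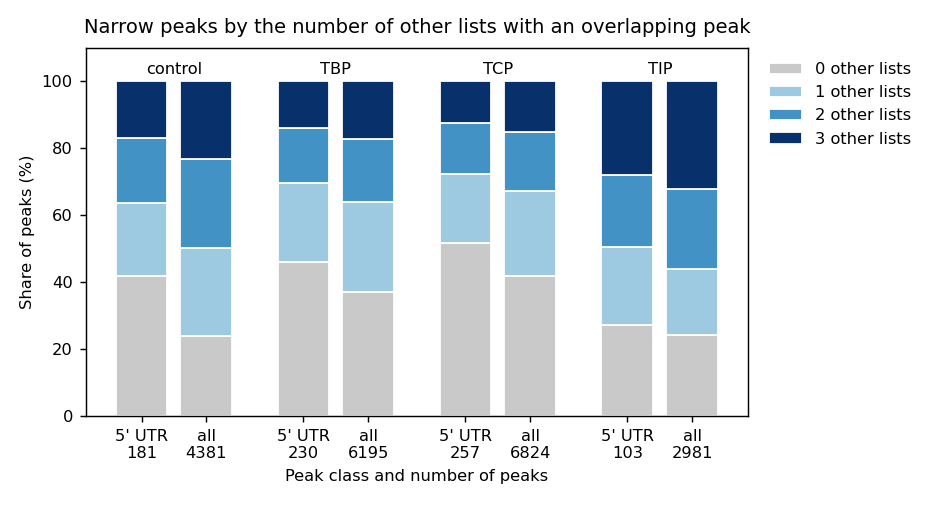
Share of narrow peaks (y axis, percent) that overlap a same-strand peak in 0, 1, 2 or 3 of the other lists, for narrow 5′ UTR peaks and all narrow peaks of each list (x axis, with the number of peaks). The grey part, peaks found in no other list, is 42.0% of the control 5′ UTR peaks and 23.8% of all narrow control peaks, and in TIP the 2 bars are 27.2% and 24.1%.

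Against control, 145 of 230 TBP members (63.0%, 56.5 to 69.3) had no same-strand control peak, where the background over all narrow TBP peaks was 59.8%. In TCP it was 179 of 257 (69.6%, 63.6 to 75.2), with a background of 64.3%, and in TIP 55 of 103 (53.4%, 43.3 to 63.3), with a background of 47.5%. All 3 backgrounds lay inside the members' intervals. In the other direction, 100 of 181 control members (55.2%, 47.7 to 62.6) had no TBP peak, where the background over all narrow control peaks was 42.3%. For TCP it was 104 (57.5%, 49.9 to 64.8), with a background of 44%, and for TIP 137 (75.7%, 68.8 to 81.8), with a background of 64.5%. These 3 shares exceeded their background by more than counting error, and all 3 rest on the single control library.

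Between the compounds, all given at the same dose and time, 92 of 230 TBP members (40.0%, 33.6 to 46.6) overlapped a TCP peak and 49 (21.3%, 16.2 to 27.2) a TIP peak, against 50.5% and 25.6% of all narrow TBP peaks. Of 257 TCP members, 95 (37.0%, 31.1 to 43.2) overlapped a TBP peak and 54 (21.0%, 16.2 to 26.5) a TIP peak, against 46.0% and 24.4% of all narrow TCP peaks. Of 103 TIP members, 52 (50.5%) overlapped a TBP peak, 55 (53.4%) a TCP peak and 48 (46.6%, 36.7 to 56.7) a control peak, against 54.4%, 57.0% and 52.5% of all narrow TIP peaks. The shares that TBP and TCP members had in each other's list lay below those of all narrow peaks by more than counting error, and the others lay within it. The TIP list is the shortest. With all lists cut to 3034 peaks, control members overlapped TIP in 39.4%, TBP in 50% and TCP in 48.1% of cases. What sets the lower overlap with TIP was not tested. No test of a difference between compounds was possible with 1 library each.

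Score and width moved with recurrence. Control members below the list's median score overlapped a TBP peak in 28 of 106 cases (26.4%, 18.3 to 35.9), against 39.3% of all narrow control peaks there. Those at or above the median did so in 53 of 75 cases (70.7%, 59.0 to 80.6), against 74.7%. The shares overlapping a TCP peak were 26.4% below the median and 65.3% above it, against 39.2% and 71.5%, and those overlapping a TIP peak were 8.49% (3.96 to 15.5) and 46.7% (35.1 to 58.6), against 12.5% and 56.7%. TIP members below their list's median overlapped a control peak in 17 of 56 cases (30.4%, 18.8 to 44.1) and those above in 31 of 47 (66.0%, 50.7 to 79.1), against 39.8% and 64.4% of all narrow TIP peaks, both inside the intervals. Of the 25-bp members of control, 31 of 88 (35.2%, 25.3 to 46.1) were in another list, against 57.8% of all narrow control peaks of that width. Of control members of 75 bp or more, 50 of 56 (89.3%, 78.1 to 96.0) were, against 93.4%. Control members thus fell short of all narrow control peaks by more than counting error at the 25-bp width and, for overlap with TBP and TCP, below the median score. Above the median, at 75 bp or more, and for overlap with TIP in either score part, the shares lay within counting error.

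Distance to the start moved with recurrence too. In control, 65.8% of members within 100 bp of a start were in no other list, against 32.1% of those beyond that and up to 1000 bp and 17.3% of those farther away. The shares in the same order were 65.1%, 31.3% and 37.7% in TBP, 59.8%, 51.7% and 43.2% in TCP and 43.8%, 25% and 14.3% in TIP. Over the 4 lists, 172 of 281 members within 100 bp of a start (61.2%) were in 1 list, against 43.9% of narrow exon peaks at that distance. This pool counts a place once for each list that has it, so no interval is given. By list, the narrow exon shares there were 37.1%, 43.1%, 45.3% and 50.6% in control, TBP, TCP and TIP. In TIP the members' share (26.4 to 62.3) was thus the lower, within counting error. Width moved with distance and recurrence in the same pool. Within 100 bp of a start, 110 of 141 members of 25 bp (78.0%) and 62 of 140 wider members (44.3%) were in no other list. Beyond 1000 bp the counts were 49 of 85 (57.6%) and 29 of 160 (18.1%). At either width, members at the start recurred less often than distant ones in these counts.

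**Figure D3:**
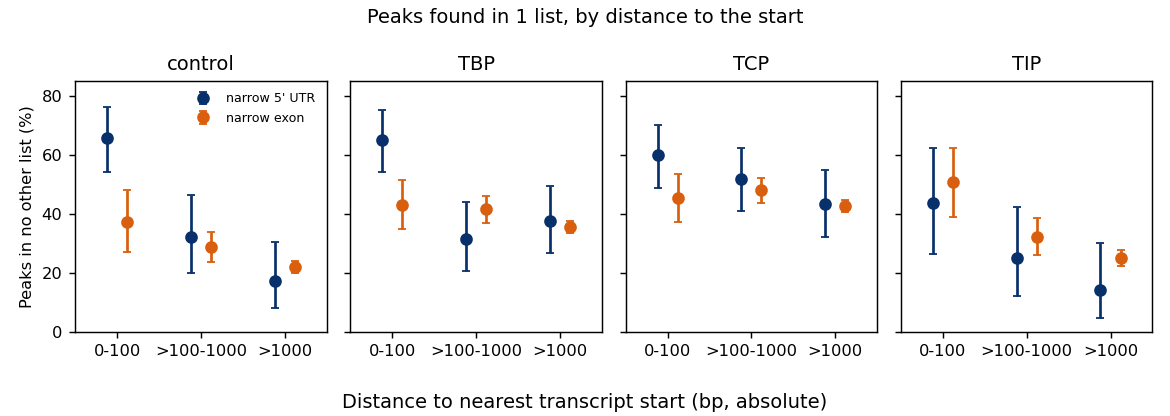
Share of peaks found in no other list (y axis, percent, with exact 95% intervals for counting error) by absolute distance to the nearest transcript start (x axis, bp), for narrow 5′ UTR peaks (blue) and narrow exon peaks outside UTRs (orange), with 1 panel per list. In control the 5′ UTR share falls from 65.8% within 100 bp to 17.3% beyond 1000 bp and the exon share from 37.1% to 21.9%. The 5′ UTR intervals in TIP are wide.

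Overlapping members were merged into 505 loci. A peak in 1 list alone was found at 343 loci (67.9%): 76 in control, 106 with TBP, 133 with TCP and 28 with TIP. When narrow peaks of all classes were merged the same way into 11519 loci, the background share was 60%, below the interval for the members (63.7 to 72.0). By list the shares of loci were 15.0%, 21.0%, 26.3% and 5.54%, against 9.05%, 19.9%, 24.8% and 6.24% of loci of all classes, so the excess was largest for control alone. Another 74 loci had peaks in 2 lists, 45 in 3 and 43 (8.51%, 6.23 to 11.3) in all 4, where the background was 10.8%. Of these, 34 had a narrow 5′ UTR peak in each list. Of the 43, 11 (25.6%) lay within 100 bp of a start, while 50 of the 76 (65.8%) did. Strict overlap also separates neighbouring peaks: 19 of the 76 control-only loci (25%) had a compound peak within 100 bp on the same strand, as 27 of 106 TBP-only, 35 of 133 TCP-only and 11 of 28 TIP-only loci had a peak of another list.

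The loci with a member in every list and the best mean rank lay in genes of several kinds. Each is given by its rank among the 4432 control, 6285 TBP, 6981 TCP and 3034 TIP peaks, 1 being the highest score, with the TIP rank of 17 shared by 301 peaks. Where a list had more than 1 member at a locus, the rank is the best of them and the width their sum. The locus of Arhgap5, a GTPase-activating protein (chr12:52516204-52516478, plus strand), ranked 125, 58, 67 and 17, and its peaks spanned 150, 275, 100 and 125 bp. It was in the best-scoring 10% of every list. That of Ddx6, a helicase of processing bodies that represses translation and promotes decapping (chr9:44607130-44607379, plus), ranked 202, 221, 37 and 17. That of Mrps6 (chr16:92076865-92077089, plus) ranked 202, 210, 298 and 17, with widths of 225, 175, 150 and 150 bp. The TCP width there is that of 2 peaks together. All 3 loci were in the top 10% of every list, and rank 37 of Ddx6 in TCP was the best of any TCP member.

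Gpat4, an acyltransferase of glycerolipid synthesis in the endoplasmic reticulum, had 2 such loci. The first (chr8:23191384-23191508, minus) ranked 221, 332, 376 and 17, and the second (chr8:23190909-23191058, minus) ranked 604, 167, 329 and 17. Tor1aip2, an activator of torsin ATPases (chr1:156051471-156051695, plus), ranked 267, 330, 715 and 17. Runx1, a transcription factor of blood cell development, had 2 loci in all lists as well: chr16:92695991-92696140 (minus) ranked 400, 118, 212 and 470, and chr16:92696166-92696240 ranked 708, 717, 188 and 470. The order of the lists thus differed between neighbouring loci of Runx1.

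The remaining loci of this set lay in genes of signalling and transcription. Stk11, the kinase LKB1 that activates AMPK (chr10:80116478-80116627, plus), ranked 587, 756, 413 and 399, a narrow range. Smad4, the shared mediator of TGF-β signalling, ranked 669, 626, 748 and 781, and Cdk13, a cyclin K-dependent kinase of transcription elongation (chr13:17772802-17772926, minus), 616, 508, 460 and 520. Chd8, a chromatin remodeller (chr14:52237429-52237578, minus), ranked 1149 in control with a 50-bp peak, and 319, 307 and 17 in the compound lists with 150-bp peaks. Gpbp1, a transcription factor (chr13:111487456-111487705, minus), ranked 1019, 37, 575 and 834, and rank 37 was the best of any TBP member. Polr2m, an RNA polymerase II-associated protein (chr9:71483508-71483757, minus), ranked 211 in control with a 200-bp peak, 681 with TBP, 2219 with TCP with a 25-bp peak, and 578 with TIP. Without replicates, such moves in rank cannot be set against the spread between libraries of 1 condition.

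**Figure D4:**
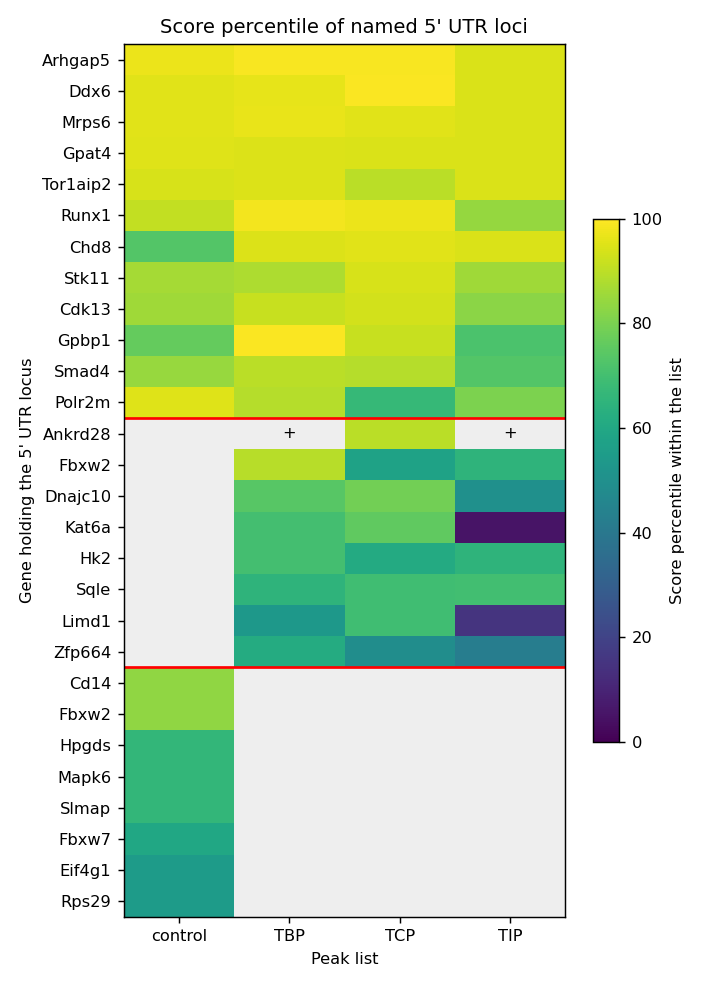
Score percentile within each list (colour, 100 is the best score) of named 5′ UTR loci (rows) in the 4 peak lists (columns); the red lines separate loci with a member in all 4 lists, loci with a peak in every compound list but not in control, and loci in control alone. Pale cells have no overlapping peak and a plus marks an overlapping peak of another class. The first 12 rows, led by Arhgap5, are bright across the lists, whereas the control-alone rows, led by Cd14, have 1 filled cell each.

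Several loci that ranked high in 1 list were less even across the others. Nrp2, a neuropilin receptor (chr1:62704060-62704159, plus), ranked 181 in control, 1470 with TBP, 1541 with TCP and 890 with TIP. Sqle, the squalene epoxidase of cholesterol synthesis (chr15:59315577-59315651, plus), ranked 95 in TCP and 1131, 1304 and 1373 in control, TBP and TIP. Mapk6, the atypical kinase ERK3 (chr9:75398010-75398184, minus), ranked 287 in control, 198 in TBP and 17 in TIP, and its TCP peak there was annotated to an exon. BC005537 ranked 259 in control with a 75-bp peak and 2528 in TBP with a 25-bp peak, and had no overlapping peak in TCP or TIP. Rbm6, an RNA-binding protein, ranked 364, 366 and 112 in control, TBP and TCP, and the TIP list has a peak directly beside it.

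The annotation class can differ between lists at 1 place. Sesn1, a p53 target that restrains mTORC1 (chr10:41810960-41811209, plus), had a 5′ UTR peak at rank 44 in TCP and rank 17 in TIP, and the overlapping peaks of control and TBP were annotated to exon 1. Its absence among control and TBP members is therefore one of label and not of a peak. Csnk1g3, a casein kinase 1, likewise ranked 193, 109 and 17 in TBP, TCP and TIP beside an overlapping control peak of the exon class. For Atp2b1, a plasma membrane calcium pump (chr10:98968863-98969012, plus), the 5′ UTR peaks ranked 130 in TCP and 17 in TIP, control had an overlapping peak of another class, and the nearest TBP peak was 54164 bp away.

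At 8 loci every compound list had a peak and control had none, 1.58% of the 505 (0.686 to 3.10) against a background of 1.83% over loci of all classes, a share near the background. At 5 of the 8 a control peak lay within 100 bp: at Fbxw2 (51 bp), Kat6a (26 bp), the second Sqle locus (51 bp), Limd1 and Zfp664 (both directly adjacent). The other 3 were Hk2, Dnajc10 and Ankrd28. Hk2, the hexokinase that starts glycolysis (chr6:82774286-82774385, minus), ranked 1797 in TBP, 2604 in TCP and 1017 in TIP, 69 bp from a start, with the nearest control peak 47012 bp away. Hk2 had 3 control peaks elsewhere in the gene. Dnajc10, a disulfide reductase of the endoplasmic reticulum (chr2:80317334-80317433, plus), ranked 1571, 1446 and 1455, and had no control peak of any class. Ankrd28, a subunit of protein phosphatase 6 (chr14:31781430-31781707, minus), had a 5′ UTR peak at rank 715 in TCP, its TBP and TIP peaks there were of the exon class, and the nearest control peak was 79563 bp away. The score percentiles of these loci were 70.3, 61.1 and 65.1 for Hk2 and 74.2, 78.6 and 50.3 for Dnajc10 in TBP, TCP and TIP, and their absence rests on 1 control library.

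In TBP alone, the best-ranked locus was that of Cybb, the catalytic subunit of the phagocyte NADPH oxidase. It spanned 50 bp (chrX:9469249-9469298, minus), held a start, and ranked 149 in TBP; the nearest peak was 2103 bp away in control, 14104 in TCP and 29247 in TIP. Cybb had 8, 5, 4 and 5 peaks of any class in control, TBP, TCP and TIP, so the gene had peaks in every list. Pcbp1, a poly(rC)-binding protein, followed at rank 157, with a TCP peak 26 bp away. Pias1, a SUMO ligase, ranked 717 with a TIP peak directly adjacent and a TCP peak 26 bp away, and Snrpd3, a core protein of spliceosomal particles, ranked 1247 with no control peak in the gene. Slmap ranked 1470, with a TCP peak directly adjacent and a control peak 26 bp away, and Tcf4 ranked 1797. Cybb and Pcbp1 were the 2 TBP-only loci above percentile 90, and no locus of control, TCP or TIP alone was above it.

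In TCP alone, Mbtps1, the site-1 protease that cleaves SREBP precursors, and Prag1 both ranked 1083; Mbtps1 had peaks of all 3 other lists 26 to 76 bp away. Ifitm3, an interferon-induced restriction factor (chr7:141010668-141010767, minus), ranked 1642 with a 100-bp peak 3 bp from a start, and it was the single peak of the gene in any list. Arhgap30 and Birc2, an inhibitor of apoptosis, ranked 2043, with a TBP peak directly beside that of Birc2, and Csnk1g1 ranked 2219. In TIP alone, Ankrd49 ranked 946 with a control peak 26 bp away, and Eif4g1, the scaffold of the cap-binding complex, ranked 1017 directly beside a control-only peak of rank 1905. Prpf31, a splicing factor, ranked 1281, Tubb5, a β-tubulin, 1373, Gnas, the stimulatory G protein α subunit, 1455 beside a TBP peak, and Isg20l2 1565.

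In control alone, the locus of Cd14, the co-receptor for lipopolysaccharide, ranked 708 of 4432 with a 25-bp peak, and the nearest compound peaks were 376 to 401 bp away. Hpgds, the haematopoietic prostaglandin D synthase (chr6:65144684-65144758, minus), ranked 1448 with a 75-bp peak. Its centre was 9 bp from a RefSeq start, while the list's own distance was 150 bp. The nearest compound peak was 24692 bp away. Hpgds had 3, 6, 4 and 1 peaks of any class in control, TBP, TCP and TIP, so the gene had peaks in every list. Rps29, a ribosomal protein (chr12:69159094-69159168, minus), ranked 1905, and the gene had no peak in the compound lists. The other 5 were less isolated. Compound peaks lay 26 to 76 bp from the Fbxw2 locus (rank 708), 101 to 226 bp from a second Mapk6 locus (rank 1448), 26 and 76 bp from that of Slmap (rank 1448; TBP and TCP), 126 and 151 bp from that of Fbxw7 (rank 1698; TBP and TCP) and directly beside that of Eif4g1.

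Members were placed in 382 host genes, 378 of them protein-coding and 4 long noncoding. There were 157 in control, 190 with TBP, 213 with TCP and 83 with TIP, which is 6.56%, 6.33%, 6.50% and 4.78% of the genes with a peak of any class. A member was found in 1 list for 236 genes, in 2 for 68, in 3 for 41 and in all 4 for 37. Every peak of the host gene was a member for 82 control genes (52.2%, 44.1 to 60.3), 69 in TBP (36.3%, 29.5 to 43.6), 85 in TCP (39.9%, 33.3 to 46.8) and 45 in TIP (54.2%, 42.9 to 65.2). The other host genes also had peaks of another class or over 500 bp. A host gene with a single peak falls in the first group by construction. Of all genes with a peak, 61.0%, 56.0%, 55.0% and 66.0% had just 1 in control, TBP, TCP and TIP.

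In 69 genes the members formed 2 or more separate loci. Runx1 had 6 loci over chr16:92695841-92696490, with 3, 4, 4 and 3 members in control, TBP, TCP and TIP. Fbxw2, an F-box protein, had 5 loci with 1, 1, 4 and 1 members, and Gpat4 had 5 with 3, 3, 4 and 3. Kat6a, a histone acetyltransferase, Limd1, Mbnl2, a regulator of splicing, Ranbp3l, Slmap, Sqle and Zfp664 had 4 each. In Mbnl2 the counts were 2, 4, 1 and 1, and in Ranbp3l 3, 2, 0 and 1. Such clusters lie close together and share a transcript, so they are not independent of one another.

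Part of the members lay where both strands have a peak. In control, 18 of 181 members (9.94%, 6.0 to 15.3) overlapped a peak on the opposite strand of the same list, against 4.25% of all narrow peaks. The share was 6.96% in TBP, 6.61% in TCP and 2.91% in TIP, against 4.39%, 3.74% and 3.59%. At some of these places the lists gave both peaks a distance of 0, and the peaks were placed in different genes. Examples in control were Twnk and Mrpl43, and Dnajc17 and Zfyve19. In each pair that distance was to the start of 1 gene, Twnk or Dnajc17. From the RefSeq start of its own gene, the centre of the Mrpl43 peak was 776 bp away and that of the Zfyve19 peak 46 bp. At others both peaks lay away from a start: the control peaks of Sco2 and Ncaph2 were 1357 and 1340 bp from the nearest one, and those of Kctd18 and Sgo2a 2573 and 2567 bp. At Bnip2, Snx17 and Pcdh7 the opposite peak could be placed in no gene. Whether the libraries keep strand is not given in the sources used here, so for these members the host gene is uncertain. That touches Dnajc17 and Bnip2 among the sequences above, and the TIP-only locus of Gnas.

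The gene lists were read by how many of their genes with a peak of any class had a member; over all genes this was 382 of 4142 (9.22%). Macrophage identity genes had a member in 4 of 15: Cd14, Csf1r, the receptor of macrophage colony-stimulating factor, Trem2, a receptor for lipids, and Ctss. All 4 were 25-bp peaks called in control and in no compound list, at ranks 708, 2610, 3291 and 3772, of which the last is the lowest score in the list. Csf1r had 4, 4, 5 and 4 peaks of any class in control, TBP, TCP and TIP, and Trem2 had 2, 1, 0 and 0. With 4 genes and ranks mostly in the lower-scoring part, where few members recur, the count is a description of 1 library.

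Signalling kinases and phosphatases had a member in 5 of 29 genes. Besides Stk11, Pik3r1, the regulatory subunit of PI3-kinase (chr13:101757527-101757801, minus), was in all 4 lists, at rank 2323 with a 25-bp peak in control, 508 (2 peaks of 250 bp together) under TBP, 297 (275 bp) under TCP and 2704 (25 bp) under TIP. Lats2, a Hippo pathway kinase, ranked 960, 841 and 1774 in control, TBP and TCP and had no TIP peak, and Akt1 ranked 4645 in TCP alone. Chromatin regulators had a member in 4 of 34 genes. Besides Chd8, Tet3, a DNA demethylase (chr6:83455068-83455192, minus), was in all 4 lists at ranks 823, 717, 618 and 834, and Brd2 and Kdm2a were each in TBP and TCP, at separate or adjacent places. Ubiquitin ligases and deubiquitinases had a member in 4 of 27: Cul1, a cullin scaffold, ranked 2572, 1002 and 399 in control, TBP and TIP with a TCP peak 26 bp away, and Fbxw7, Usp9x and Fbxo33 had members in 1 list each.

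In the p53 list 2 of 13 genes had a member, Sesn1 and, at the lowest score of control, Bax. Among immediate early genes 1 of 15 did: Btg1, an antiproliferative factor (chr10:96618284-96618408, plus), ranked 1131 in control, 254 in TBP and 2110 in TIP, with a TCP peak 126 bp away. Among toll-like receptor and NF-κB genes 2 of 17 did, Tlr2 at rank 3788 in TBP and Tab2 at rank 460 in TCP, where an overlapping control peak was of the exon class. In the interferon and JAK-STAT list 2 of 14 did, Pias1 and Socs4, the latter at rank 2610 in control and 1571 in TBP. Splicing factors had 3 of 30, Hnrnpd, Son and Hnrnph1, all at rank 2323 or lower.

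Genes of translation and of the m6A pathway itself had members at shares near that of all genes. Of translation initiation factors 2 of 24 did, Eif4g1 and Eif4g2, of transcripts with a 5′ terminal oligopyrimidine tract 2 of 30, Rps19 and Nap1l1, and of integrated stress response and upstream reading frame transcripts 1 of 19, Slc3a2. Of m6A writers, readers and erasers 2 of 18 did, Hnrnpa2b1 at rank 3423 in TBP and Mettl5 at rank 4645 in TCP. No member was found in 13 heat shock and chaperone genes, 14 NRF2 and antioxidant genes, 18 cell cycle genes or 6 iron-handling genes that had a peak of any class. With so few genes per list, these counts do not separate any list from the 9.22% over all genes.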

How the data were processed

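By the extract protocol in the labels, an m6A antibody was used on total RNA, and libraries came from gel-selected fragments. Per the submitters' processing notes, the tools were, in alphabetical order, ChIPseeker 1.26, deepTools 3.5.0, DESeq2 1.30.1, FastQC 0.11.9, HISAT2 2.1.0, HOMER 4.11, Picard 2.23.5, SAMtools 1.9, StringTie 2.1.4 and Trim Galore 0.6.5; their roles, the peak caller, its threshold, the use of the input libraries and strandedness: not given in the sources used here. The deposited lists give position, strand, width, annotation class, nearest gene, distance to the start and the authors' score, a number with no stated scale, used here as a rank within its list.

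Overlaps, loci, shares and exact intervals were computed with Python 3.11.15, pandas 2.3.3, numpy 2.4.6 and scipy 1.17.1. The overlap step recovered 130 of 130 overlaps planted among 400 simulated regions. The host gene was the nearest gene where it lay over the peak on its strand (715 members), else a single RefSeq gene over it (36), else none (20); 97.4% of members were placed, and 95.7% of all peaks. For 43 members (5.58%) the nearest gene was on the other strand.

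Named loci follow a rule: the best-ranked 8 genes per list, 12 loci in all lists, 8 in the compounds and not in control, 6 per compound alone, 8 in control alone, up to 4 genes per gene list, and genes with 2 or more loci. Not all are told; loci picked out of this set were chosen after their values were seen. The members and the 18 gene lists were chosen with earlier results of these data known. Sequences come from RefSeq (GRCm38.p6). No genome sequence was used, so members outside the start windows have no sequence here.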

Additional observations from a re-analysis of the deposited data

How the results depend on the processing

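Of 88 values recomputed under the alternatives, 58 moved by less than their counting interval or stayed within 1.5 times, and 30 moved. A stricter score filter, at or above each list's median, left 75 members in control, 113 with TBP, 120 with TCP and 47 with TIP, with list shares of 3.26% in control and 3.21% in TCP. It raised the share of control members overlapping TBP to 64%, TCP to 56% and TIP to 32%, and the share of TBP, TCP and TIP members overlapping control to 46.9%, 36.7% and 57.5%. Cutting all lists to 3034 peaks left 104 members in control, 103 in TBP and 93 in TCP, with shares of 3.43% in control and 3.07% in TCP, and 39.4% of control members then overlapped TIP, 55.3% of TBP and 53.8% of TCP members control. A reciprocal overlap of 50% lowered control in TBP to 31.5% and in TCP to 27.6%, and TBP, TCP and TIP in control to 25.2%, 19.8% and 35.0%. Measured from the nearest RefSeq start of the host gene, the median signed distances were 681, 677, 862.5 and 1122 bp in control, TBP, TCP and TIP. The signed medians in the lists were 43, 45.5, 114 and 152 bp. With peaks up to 100 bp apart joined, 5 loci were in the 3 compounds and not in control. Ignoring strand moved none of the 6 overlap shares with control. The cause of these moves was not tested, except that fewer peaks enter under the score filter and the equal length. No paired analysis was possible because each condition has 1 immunoprecipitated library.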
